A study of Mus musculus with 26 samples.

Results

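Oxidative phosphorylation is carried out in the inner mitochondrial membrane by the 4 complexes of the respiratory chain and by ATP synthase, called complex V. The genes of these complexes were described here in mouse leukaemia cells with forced expression of SETDB1, a histone methyltransferase that places methyl groups on lysine 9 of histone H3, and in control cells. Members were chosen by symbol: every listed gene whose symbol started with Ndufa, Ndufb, Ndufc, Ndufs, Ndufv, Uqcr, Cox4i, Cox5, Cox6, Cox7, Cox8, Atp5, mt-Nd, mt-Co, mt-Cytb or mt-Atp, together with Sdha, Sdhb, Sdhc and Sdhd. Symbols ending in -ps or numbered forms of it were left out. Of 54146 listed genes, 111 followed the rule, 98 of them nuclear and 13 encoded by mitochondrial DNA. They carried 110 different symbols, since Atp5o was listed under 2 gene identifiers. The rule also took in 8 Ndufaf genes, whose products help to assemble complex I and are not subunits of it, and Atp5s, whose product is not a subunit of ATP synthase.

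The series compared MA9+SETDB1 cells with MA9+EV cells, and 6 poly-A selected RNA-seq libraries, 3 of each, were used. Both kinds of cell began as lineage-negative mouse bone marrow transduced by retrovirus with MLL-AF9, a fusion oncogene of acute myeloid leukaemia (AML). MA9+SETDB1 cells also received SETDB1, and MA9+EV cells received the MSCVpuro vector without an insert. Both arms therefore carried MLL-AF9 and a puromycin-selected virus, and both grew in IL-3 and stem cell factor (SCF). Culture lasted 8 to 12 weeks and puromycin selection about 3 to 6 weeks, per the labels' protocols. The labels call the libraries biological replicates without saying whether they came from separate transductions, so the p-values cover the spread between these 6 libraries. The strain and the species of the SETDB1 cDNA are not given in the sources used here.

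Complex I takes electrons from NADH and complex II from succinate, complex III passes them on to cytochrome c, and complex IV hands them to oxygen. The proton gradient made by complexes I, III and IV drives ATP synthase, and complex II pumps no protons. Complex II is made of nuclear gene products alone, while the other complexes combine nuclear subunits with subunits encoded by mitochondrial DNA. Primitive cells of human AML have been described as leaning heavily on this pathway.

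Gene counts per library lay between 18070482 and 22561757. Setdb1 stood at 475, 605 and 607 CPM (counts relative to the library total, scaled for library composition) in the MA9+SETDB1 libraries and at 105, 108 and 109 CPM in the MA9+EV libraries, as the labels say. The arms differed in their cell type markers. Of 6 leukocyte and myeloid progenitor markers, Itgam and Cd34 were higher, Kit, Cd33 and Ptprc were lower and Spi1 was not called, with summed levels of 718 to 793 CPM in MA9+SETDB1 cells and 954 to 1103 CPM in MA9+EV. Of 6 lymphoid and stromal markers Pecam1 was lower, Cd3e and Ms4a1 were at 0 in both arms, and the sums were 127 to 134 CPM in MA9+SETDB1 cells and 230 to 365 CPM in MA9+EV. Of 10 mast cell and basophil markers 9 were higher, with summed levels of 11092 to 11616 CPM in MA9+SETDB1 cells and 49.6 to 85.0 CPM in MA9+EV. All 10 erythroid markers were higher, at 1554 to 1905 CPM in MA9+SETDB1 cells against 0.785 to 1.51 CPM in MA9+EV, where Alas2 and Slc4a1 were at 0. Of the 6 megakaryocyte markers 2 were higher and 1 was lower, with sums of 521 to 661 CPM in MA9+SETDB1 cells against 1.57 to 2.32 CPM in MA9+EV. The 4 primary granule genes in the files were lower, at 39.4 to 124 CPM in MA9+SETDB1 cells against 13484 to 14843 CPM in MA9+EV, and of 6 monocyte and macrophage markers 4 were lower and 2 higher, at 649 to 1568 CPM in MA9+SETDB1 cells against 2354 to 3859 CPM in MA9+EV. These lists moved with every comparison below, and their part in the results was not tested. In RNA from whole cultures, fewer cells of a type and less RNA per cell cannot be told apart. In both arms replicates 2 and 3 were close to each other and replicate 1 stood apart: the chi-square per degree of freedom between their counts was 3.26 for replicates 2 and 3 of MA9+SETDB1 and 4.50 for those of MA9+EV, against 80.6 to 113 for pairs that held replicate 1.

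The nuclear members were a set with small changes. Of 98 nuclear members 88 had enough counts to be tested, and edgeR's quasi-likelihood test with Benjamini-Hochberg adjustment over all 12986 tested genes (adjusted p under 0.05) called 16 higher and 15 lower in MA9+SETDB1. That is 18.2% higher and 17.0% lower, where 27.4% of all tested genes were called higher and 26.2% lower, and 53.5% in either direction. Over a 2-fold change, 4 nuclear members were called, against 33.1% of all tested genes, and all 4 were higher: Cox6b2, Ndufa6, Ndufa1 and Atp5e. The fitted log2 fold change of MA9+SETDB1 over MA9+EV had a median of -0.05 over the nuclear members and of -0.01 over all genes. Its median size without sign was 0.25 in the nuclear members and 0.62 over all genes. It lay between -0.5 and 0.5 for 69 of the 88 members (78.4%) and for 43.2% of all genes. The members were also higher expressed, with a median of 79.0 CPM against 30.6 CPM over all genes. Among genes with a mean of 10 CPM or more, 61 of 77 nuclear members (79.2%) lay within that range and 50.5% of genes did, and 29 of the 77 were called, against 54.1% of genes.

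**Figure D1:**
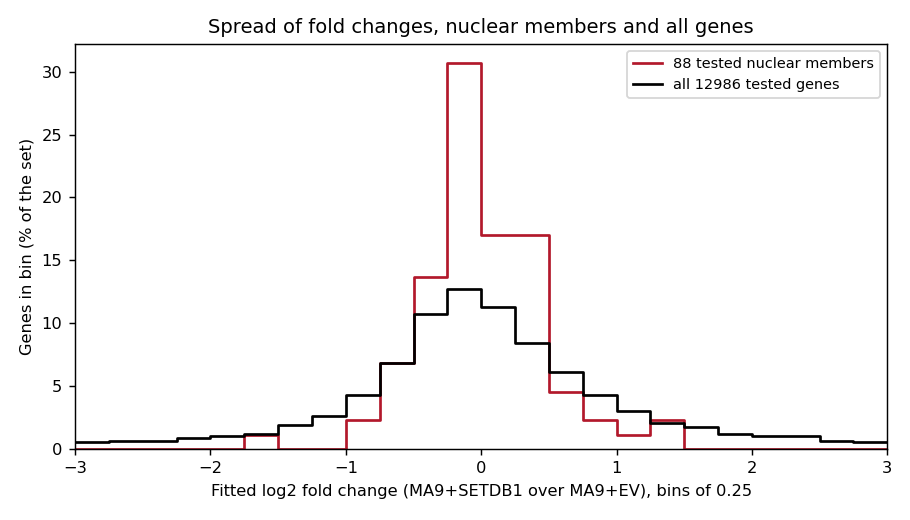
Distribution of fitted log2 fold changes (MA9+SETDB1 over MA9+EV, x axis) as the percent of each set per bin of 0.25 (y axis), for the 88 tested nuclear members (red) and all 12986 tested genes (black). The red curve is narrower: 78.4% of its genes lie between -0.5 and 0.5, against 43.2% of all genes.

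The summed level of the nuclear members was 9271, 10743 and 11178 CPM in MA9+SETDB1 libraries and 10215, 10561 and 10277 CPM in MA9+EV libraries. The arms overlapped, with means of 10397 ± 999 CPM in MA9+SETDB1 and 10351 ± 185 CPM in MA9+EV (SD, n = 3 each). The sums of complexes I, III, IV and V overlapped as well. Complex II summed to 588 ± 22.8 CPM in MA9+SETDB1 cells and 807 ± 33.5 CPM in MA9+EV, and the 8 Ndufaf genes to 197 ± 11.5 CPM in MA9+SETDB1 and 175 ± 1.83 CPM in MA9+EV (SD, n = 3 each). The split of calls depended on the scaling. Without composition factors the median of all genes shifted by -0.24 on the log2 scale, the whole table split into 2825 higher and 4585 lower in place of 3554 and 3397, and the nuclear members into 8 higher and 34 lower. As a share of all gene counts, with no composition factor, the nuclear members took 0.956% ± 0.0414 in MA9+SETDB1 and 1.12% ± 0.0221 in MA9+EV (SD, n = 3 each), with no overlap. Directions below are relative to the TMM (trimmed mean of M-values) scaling.

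The number of nuclear members called depended on the libraries used. It was 16 without MA9+SETDB1 replicate 2, 18 without MA9+SETDB1 replicate 3, 19 without MA9+EV replicate 2 and 17 without MA9+EV replicate 3. Counts over all genes in these fits are not given here. With replicates 2 and 3 of each arm summed to 1 library, it was 8. Calls over the 12986 genes fell as well, from 3554 higher and 3397 lower to 2137 and 1806. The calls above come from a fit without replicate numbers. Only in the replicate block were the numbers taken as pairs across arms, although correlations set replicate 1 apart and did not tell replicate 2 from replicate 3. With the number as a block 21 nuclear members were called higher and 17 lower, beside 3791 and 3761 of the 12986 genes. In 15 alternative settings the same 8 calls held each time: Ndufa1, Ndufa6, Ndufb5, Ndufaf1, Sdhb, Sdhd, Cox6b2 and Atp5e. The nuclear members tended to be low in replicate 1 of MA9+SETDB1, the lowest library of that arm for 68 of the 88 (77.3%, against 43.9% of all tested genes). In MA9+EV they were nearer to all genes. Replicate 1 was the lowest library there for 45 (51.1%, against 45.3%) and the highest for 29 (33.0%, against 40.8%).

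**Figure D2:**
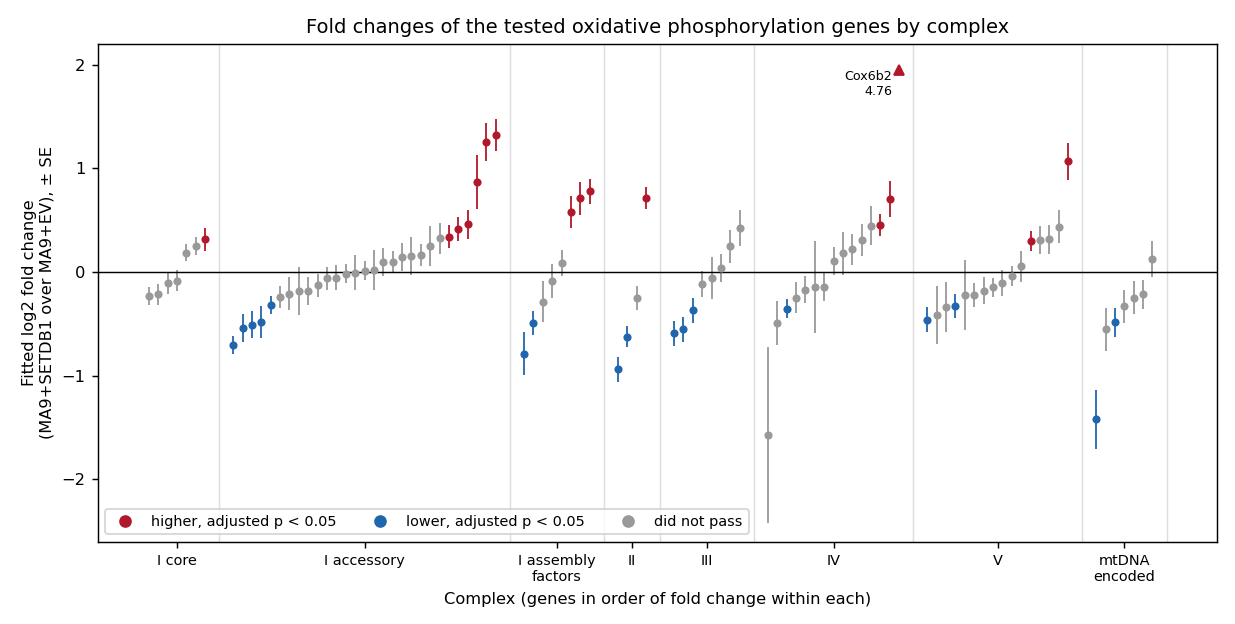
Fitted log2 fold change (MA9+SETDB1 over MA9+EV, y axis) with its standard error (bars) for each tested member except Atp5s, grouped by complex and ordered by fold change along the x axis, red for higher and blue for lower at an adjusted p under 0.05 and grey for genes that did not pass. Most points lie close to 0, Cox6b2 at 4.76 is drawn at the upper edge without its bar, and the 4 complex II genes fall on both sides of 0.

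Complex II, the succinate dehydrogenase that also belongs to the citric acid cycle, split into opposite directions: of its 4 genes Sdhb was higher and Sdha and Sdhd were lower. That is 75.0% of 4 genes called, against 53.5% of all tested genes. Sdhb encodes the iron-sulphur subunit and lies at chr4:140961271-140979198 (GRCm38). It stood at 114, 132 and 137 CPM in MA9+SETDB1 libraries, against 79.0, 80.1 and 74.4 CPM in MA9+EV libraries. All 3 MA9+SETDB1 values lay above all MA9+EV values, with 0.72 ± 0.11 SE as the log2 fold change and an edgeR adjusted p of 0.0014, in a table where such a separation in either direction was seen for 64.6% of genes. Sdha encodes the flavoprotein that oxidises succinate (chr13:74322255-74350240). It stood at 208, 209 and 199 CPM in MA9+SETDB1 cells and at 345, 303 and 303 CPM in MA9+EV. Every MA9+SETDB1 library was below every MA9+EV library, and the fitted change was -0.63 ± 0.10 SE (edgeR adjusted p = 0.00217). The call on Sdha ended with replicates 2 and 3 summed (adjusted p = 0.0532) and in no other setting.

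Sdhd and Sdhc encode the membrane anchors that hold the haem and the ubiquinone site. Sdhd (chr9:50596340-50603849) stood at 144, 146 and 160 CPM in MA9+SETDB1 libraries, against 254, 323 and 287 CPM in MA9+EV libraries. It fell without overlap, by the most of any nuclear member with a mean of 10 CPM or more (-0.94 ± 0.12 SE, edgeR adjusted p = 0.000834). Sdhc (chr1:171129157-171150640) stood at 97.3, 108 and 110 CPM in MA9+SETDB1 cells and at 113, 140 and 122 CPM in MA9+EV, and did not pass (-0.25, edgeR adjusted p = 0.108). Without MA9+EV replicate 1 its adjusted p was 0.0478. Within a library the counts of these genes can be set against each other with no scaling at all. Sdhb counts came to 54.9%, 63.0% and 68.9% of Sdha counts in MA9+SETDB1 libraries and to 22.9%, 26.5% and 24.5% in MA9+EV libraries. As a percent of Sdhd counts they were 85.1 ± 5.33 in MA9+SETDB1 and 27.3 ± 3.38 in MA9+EV (SD, n = 3 each). These ratios are not per length and compare arms, not the 2 genes. In both ratios the 3 MA9+SETDB1 libraries were far above the 3 MA9+EV libraries, and an exact permutation test of 3 against 3 cannot give a p below 0.10.

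**Figure D3:**
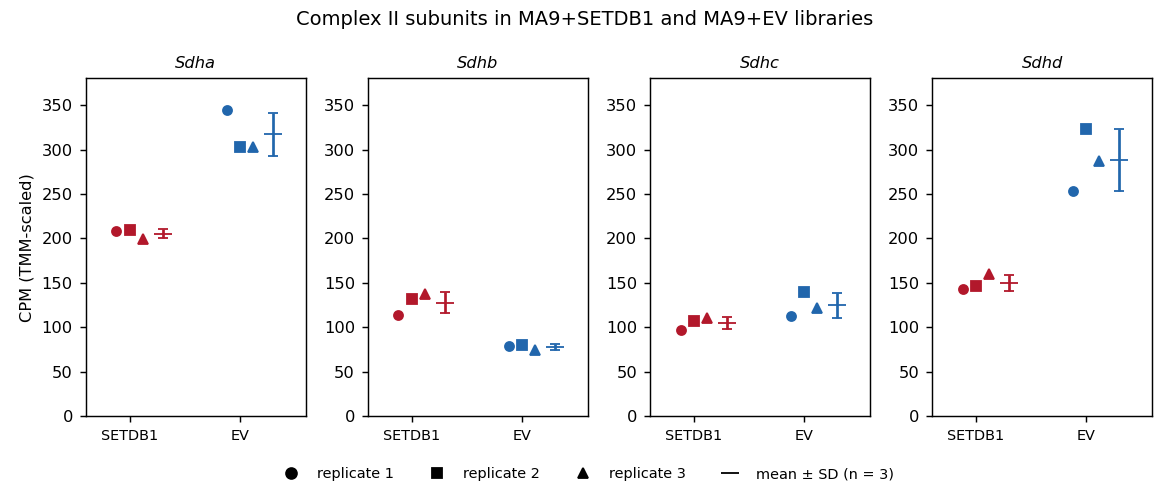
CPM (y axis, from 0) of the 4 complex II genes in the 3 MA9+SETDB1 libraries (red, left) and the 3 MA9+EV libraries (blue, right), with mean ± SD beside the points and replicate numbers as marker shapes. Sdhb is higher in all MA9+SETDB1 libraries, Sdha and Sdhd are lower in all of them, and Sdhc at 97.3 to 110 CPM lies just under the MA9+EV range of 113 to 140 CPM.

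The promoters of complex II genes whose calls differed in direction are shown because nuclear genes of the pathway are known to be bound there by NRF1, by the ETS factor GABP and by YY1. Each window runs from 250 bases before to 50 bases after the RefSeq start of the gene (GRCm38.p6), 5′ to 3′ on the strand of the gene. Capitals mark matches to 4 motifs, searched on both strands: NRF1 (GCGCATGCG), ETS (CCGGAAG, read CTTCCGG on the other strand), YY1 (AAGATGGCG) and the cAMP response element (TGACGTCA). Matches on the 2 strands of the NRF1 motif can overlap and then mark 1 run of capitals, and an ETS match can share 3 letters with a YY1 match. The windows are chr4:140961021-140961320 on the plus strand, chr13:74350191-74350490 on the minus strand and chr9:50603800-50604099 on the minus strand.
Sdhb: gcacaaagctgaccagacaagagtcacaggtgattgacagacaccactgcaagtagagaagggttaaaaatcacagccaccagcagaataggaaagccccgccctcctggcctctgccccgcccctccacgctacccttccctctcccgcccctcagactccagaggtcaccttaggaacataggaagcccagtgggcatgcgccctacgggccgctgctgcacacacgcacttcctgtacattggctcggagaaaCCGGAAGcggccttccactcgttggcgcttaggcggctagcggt
Sdha: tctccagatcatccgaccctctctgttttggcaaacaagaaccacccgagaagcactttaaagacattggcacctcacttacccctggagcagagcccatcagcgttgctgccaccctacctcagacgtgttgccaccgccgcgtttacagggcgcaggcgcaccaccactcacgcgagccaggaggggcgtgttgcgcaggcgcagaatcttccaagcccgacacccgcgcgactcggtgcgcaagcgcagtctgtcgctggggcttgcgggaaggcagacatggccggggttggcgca
Sdhd: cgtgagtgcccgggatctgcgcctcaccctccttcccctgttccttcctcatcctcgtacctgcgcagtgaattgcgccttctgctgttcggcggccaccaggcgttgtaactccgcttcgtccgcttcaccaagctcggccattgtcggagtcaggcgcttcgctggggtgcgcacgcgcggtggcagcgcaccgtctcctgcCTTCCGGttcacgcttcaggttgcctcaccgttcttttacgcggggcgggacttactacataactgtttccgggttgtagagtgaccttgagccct
Sdhb and Sdhd each held 1 ETS match and Sdha held none of the 4, so the gene that rose and a gene that fell shared this feature. Of 97 nuclear symbols 76 had a window. An NRF1 match was found in 10 (13.2%), against 3.74% of the windows of tested genes (9734 with a window) and 1.75% of all 32851 windows. An ETS match was found in 18 (23.7%, against 19.1% and 8.86%), a YY1 match in 8 (10.5%, against 3.36% and 1.40%) and a cAMP response element in 4 (5.26%, against 3.18% and 1.79%). At least 1 motif was found in 7 of 15 windows of genes called higher, in 4 of 14 of genes called lower and in 22 of 45 of genes not called. A match is a run of letters only and does not show a bound site.

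Complex I, the largest complex of the chain, had 1 of 7 core genes called and 11 of 29 tested accessory genes, 6 higher and 5 lower. That is 14.3% of core and 37.9% of accessory genes called, against 53.5% of all tested genes. The core subunits carry the flavin, the iron-sulphur clusters and the quinone site, and their nuclear genes summed to 681 ± 8.60 CPM in MA9+SETDB1 cells and 683 ± 28.9 CPM in MA9+EV (SD, n = 3 each). Their fitted changes ran only from -0.23 to 0.32. Ndufs3, a core subunit of the arm in the matrix, was the gene called, at 36.8, 39.9 and 40.3 CPM in MA9+SETDB1 cells and 33.2, 28.8 and 32.0 CPM in MA9+EV. Its call was marginal, with a log2 fold change of 0.32 and an edgeR adjusted p of 0.0496. The adjusted p became 0.0566 with the replicate block and 0.552 without composition factors (log2 0.085). It was 0.123 to 0.178 without MA9+SETDB1 replicate 2, MA9+SETDB1 replicate 3, MA9+EV replicate 2 or MA9+EV replicate 3. Ndufv2, an iron-sulphur subunit, stood at 110, 112 and 104 CPM in MA9+SETDB1 cells against 130, 129 and 124 CPM in MA9+EV (-0.23, adjusted p = 0.0563, 0.0442 with the block). Ndufv1, which binds NADH, stood at 101, 104 and 105 CPM in MA9+SETDB1 cells against 91.9, 91.9 and 88.7 CPM in MA9+EV (0.19, adjusted p = 0.0962).

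The accessory subunits surround the core and are needed for its assembly and stability. The largest changes of complex I were here. Ndufa6, a subunit of the LYR motif family in the matrix arm (chr15:82350139-82354291), stood at 122, 165 and 157 CPM in MA9+SETDB1 cells, against 52.4, 59.0 and 66.9 CPM in MA9+EV. Its lowest MA9+SETDB1 value was well above its highest MA9+EV value, a fold change of 2.50 (log2 1.32 ± 0.15 SE, edgeR adjusted p = 0.000511). Ndufa1, a small membrane subunit (chrX:37187588-37191238), stood at 64.1, 75.5 and 79.0 CPM in MA9+SETDB1 cells, against 23.4, 35.6 and 32.5 CPM in MA9+EV. It rose 2.39-fold without overlap (log2 1.26 ± 0.18 SE, edgeR adjusted p = 0.00128). It shares 17 bases with Rnf113a1, which stood at 5.26 CPM in MA9+SETDB1 cells and 7.11 CPM in MA9+EV, and reads cannot be divided between overlapping genes without the strand setting of the counting.

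Ndufa7 stood at 96.7, 157 and 174 CPM in MA9+SETDB1 cells, against 57.9, 92.8 and 83.1 CPM in MA9+EV (log2 0.87, edgeR adjusted p = 0.0279). Replicate 1 was the low library of each arm, and the arms were 96.7 and 92.8 CPM apart at their closest. The call was lost without composition factors (adjusted p = 0.0605), MA9+SETDB1 replicate 2 (0.0815), MA9+SETDB1 replicate 3 (0.09), MA9+EV replicate 1 (0.0731) or MA9+EV replicate 3 (0.0664). Ndufa3, Ndufa11 and Ndufa12 were the other accessory genes called higher, with log2 fold changes of 0.34, 0.46 and 0.41, and they were called in 6, 9 and 8 of the 15 alternative settings. None of these 3 was called without composition factors (adjusted p = 0.455, 0.152 and 0.192) or without MA9+SETDB1 replicate 2 (0.127, 0.0863 and 0.0773), MA9+SETDB1 replicate 3 (0.105, 0.0947 and 0.0784), MA9+EV replicate 2 (0.0916, 0.067 and 0.0719) or MA9+EV replicate 3 (0.0575, 0.101 and 0.0791), and Ndufa3 was also not called without MA9+EV replicate 1 (0.06). Ndufb5, a subunit of the membrane arm, led the accessory genes that fell, at 75.4, 78.2 and 79.5 CPM in MA9+SETDB1 cells and 124, 128 and 127 CPM in MA9+EV. The values of each arm lay close together, and the change was -0.70 ± 0.08 SE (edgeR adjusted p = 0.00055). Ndufc2 (-0.54), Ndufa5 (-0.51), Ndufab1, which is also the mitochondrial acyl carrier protein (-0.48), and Ndufb10 (-0.32) were the others called lower. The call on Ndufc2 was lost without MA9+EV replicate 2 (adjusted p = 0.0534) or replicate 3 (0.0524). Without MA9+SETDB1 replicate 2, MA9+SETDB1 replicate 3 or MA9+EV replicate 3, the adjusted p was 0.06, 0.0635 and 0.0626 for Ndufa5, 0.143, 0.0793 and 0.0847 for Ndufab1, and 0.0762, 0.0566 and 0.0711 for Ndufb10. Ndufab1 was also not called without MA9+EV replicate 1 (0.0581) or replicate 2 (0.0934). The other 18 accessory genes that were tested had log2 fold changes from -0.24 to 0.33.

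Of the 8 Ndufaf genes, 3 were called higher and 2 lower (37.5% and 25.0%, against 27.4% and 26.2% of all tested genes). Ndufaf1, a chaperone for the membrane arm, stood at 42.6, 43.3 and 45.6 CPM in MA9+SETDB1 cells and at 22.9, 28.2 and 25.5 CPM in MA9+EV, with no overlap (0.78 ± 0.12 SE, edgeR adjusted p = 0.00169). Ndufaf5, which modifies Ndufs7, stood at 18.3, 19.8 and 23.5 CPM in MA9+SETDB1 cells against 12.6, 13.2 and 11.9 CPM in MA9+EV (0.71, adjusted p = 0.00831), and Ndufaf7, a methyltransferase, was called higher as well (0.58), but not without composition factors (adjusted p = 0.0725), MA9+SETDB1 replicate 2 (0.0717), MA9+SETDB1 replicate 3 (0.0711) or MA9+EV replicate 3 (0.0565). Ndufaf2, a chaperone related in sequence to Ndufa12, stood at 8.95, 6.15 and 6.86 CPM in MA9+SETDB1 cells and 12.8, 13.4 and 11.7 CPM in MA9+EV (-0.79, edgeR adjusted p = 0.016). It lost its call without MA9+SETDB1 replicate 2 (0.0671), MA9+SETDB1 replicate 3 (0.0636) or MA9+EV replicate 2 (0.0612). Ndufaf4 fell too (-0.49, edgeR adjusted p = 0.0102).

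Complex III, the cytochrome bc1 complex, had 3 of 8 nuclear members called, all lower (37.5%, against 26.2% of all tested genes called lower). Uqcrc1, a core protein that faces the matrix, stood at 209, 234 and 237 CPM in MA9+SETDB1 cells and at 382, 328 and 315 CPM in MA9+EV. The arms were far apart relative to their spread, at -0.59 ± 0.12 SE on the log2 scale (edgeR adjusted p = 0.00547). Its core partner Uqcrc2 was not called, at 237, 306 and 345 CPM in MA9+SETDB1 cells and 235, 266 and 247 CPM in MA9+EV (0.25, adjusted p = 0.22). Uqcrb, which lies by the quinone site, stood at 23.3, 26.8 and 25.4 CPM in MA9+SETDB1 cells and 38.3, 33.5 and 38.9 CPM in MA9+EV (-0.55, edgeR adjusted p = 0.0081). Uqcr10, a small subunit, was lower too (-0.37, edgeR adjusted p = 0.0406), a call lost without MA9+SETDB1 replicate 1 (0.0672), MA9+SETDB1 replicate 2 (0.13), MA9+EV replicate 2 (0.126) or MA9+EV replicate 3 (0.113). Uqcrh, the hinge protein, stood at 147, 187 and 208 CPM in MA9+SETDB1 cells and at 111, 153 and 139 CPM in MA9+EV. These ranges overlapped through replicate 1, and the adjusted p of 0.0773 became 0.0139 with the replicate block (log2 0.43) and 0.0164 without MA9+SETDB1 replicate 1. The Rieske protein gene Uqcrfs1 did not pass (0.04). The Uqcrc1 promoter (chr9:108936398-108936697, plus strand) is shown because it held the NRF1 motif, in capitals.
Uqcrc1: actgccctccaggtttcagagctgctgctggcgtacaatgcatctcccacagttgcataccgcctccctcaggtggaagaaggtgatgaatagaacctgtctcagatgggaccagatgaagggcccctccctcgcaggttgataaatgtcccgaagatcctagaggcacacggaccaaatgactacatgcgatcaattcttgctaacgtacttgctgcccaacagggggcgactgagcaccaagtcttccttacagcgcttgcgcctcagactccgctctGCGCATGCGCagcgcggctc

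Complex IV, cytochrome c oxidase, has tissue isoforms of several subunits. Of its 15 tested nuclear members 3 were called higher and 1 lower. That is 26.7% called in either direction, against 53.5% of all tested genes. The class summed to 1729 ± 219 CPM in MA9+SETDB1 cells and 1607 ± 104 CPM in MA9+EV (SD, n = 3 each). Cox6b2, the testis isoform of a subunit on the side of cytochrome c (chr7:4751792-4753094), had 381, 142 and 171 counts in MA9+SETDB1 libraries and 25, 5 and 3 counts in MA9+EV libraries. In CPM this was 21.3, 8.64 and 8.88 in MA9+SETDB1 against 1.03, 0.207 and 0.151 in MA9+EV. The arms were widely separated, and in each arm replicate 1 was the highest by more than the distance between the other libraries. On the log2 scale Cox6b2 rose by 4.76 ± 0.77 SE (edgeR adjusted p = 0.00215, 0.00054 with the block). Cox6b2 remained the minor form in counts, at 6.20% ± 4.50 of Cox6b1 counts in MA9+SETDB1 and 0.233% ± 0.259 in MA9+EV (SD, n = 3 each, not per length). The ubiquitous Cox6b1 did not pass, at 187, 235 and 252 CPM in MA9+SETDB1 cells and 194, 218 and 213 CPM in MA9+EV (0.11).

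Cox6a1, the ubiquitous form of subunit VIa, stood at 187, 275 and 289 CPM in MA9+SETDB1 cells and at 157, 147 and 157 CPM in MA9+EV. It rose without overlap (0.71 ± 0.17 SE, edgeR adjusted p = 0.0126), and its adjusted p was 0.0511 without MA9+EV replicate 2. Its heart and muscle form Cox6a2 was scarce, at 0.224, 0.670 and 1.04 CPM in MA9+SETDB1 cells and 0.330, 2.49 and 3.02 CPM in MA9+EV. Both arms were low in replicate 1 and overlapped (-1.57, edgeR adjusted p = 0.16), and the adjusted p was 0.0251 with the replicate block and 0.0273 without MA9+EV replicate 1. Cox6c was called higher, with 122, 121 and 119 CPM in MA9+SETDB1 cells and 77.0, 92.3 and 94.4 CPM in MA9+EV (0.45, edgeR adjusted p = 0.011), but not without composition factors (0.22, adjusted p = 0.158). Ndufa4, first described in complex I and now placed in complex IV, was the member called lower, at 113, 108 and 112 CPM in MA9+SETDB1 cells and 153, 136 and 137 CPM in MA9+EV (-0.35, edgeR adjusted p = 0.0169). It lost its call without MA9+SETDB1 replicate 2 (0.0812) or replicate 3 (0.0609).

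The other isoform pairs were not called. Cox4i1 stood at 263, 280 and 317 CPM in MA9+SETDB1 cells and 287, 394 and 340 CPM in MA9+EV (-0.25, edgeR adjusted p = 0.203). Its partner Cox4i2, known in lung and as a hypoxia-linked form, had 4, 3 and 5 counts in MA9+SETDB1 cells against 1, 11 and 9 counts in MA9+EV, too few to test. The muscle form Cox7a1 stood at 2.35, 3.65 and 3.12 CPM in MA9+SETDB1 cells and 1.53, 3.98 and 4.58 CPM in MA9+EV, while Cox7a2, the form of most tissues, stood at 112, 127 and 145 CPM in MA9+SETDB1 cells against 129, 154 and 149 CPM in MA9+EV. Neither these nor Cox7a2l, which joins complexes III and IV, nor Cox7b passed. Cox8a stood at 119, 174 and 192 CPM in MA9+SETDB1 cells and 112, 112 and 133 CPM in MA9+EV, with an adjusted p of 0.0854 that became 0.0415 with the replicate block and 0.00407 without MA9+SETDB1 replicate 1. Its muscle form Cox8b and testis form Cox8c, and the testis form Cox7b2, had no count in any library. A count of 0 allows up to 3 counts in a library, between 0.124 and 0.183 CPM here. Ndufa4l2, the hypoxia-linked relative of Ndufa4, had 0, 1 and 1 counts in MA9+SETDB1 and 0, 1 and 2 counts in MA9+EV, and Cox6c2 had 3, 2 and 4 in MA9+SETDB1 against 4, 0 and 2 in MA9+EV.

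**Figure D4:**
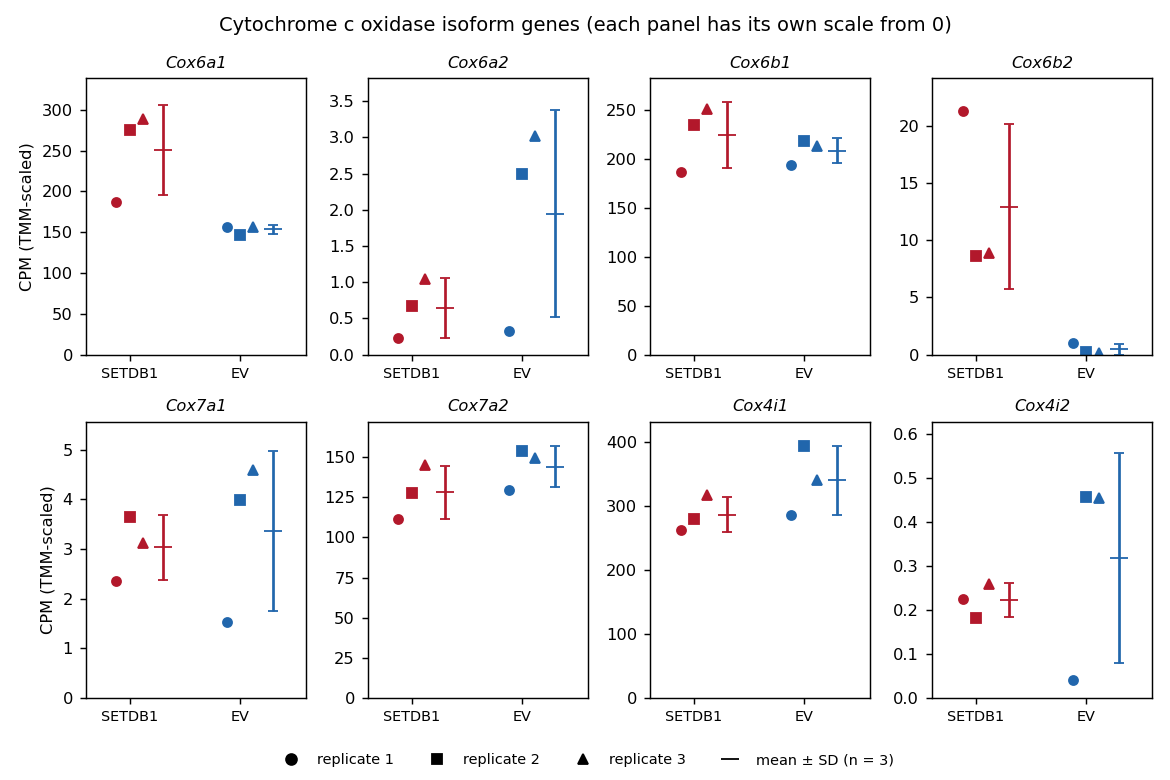
CPM of 8 cytochrome c oxidase isoform genes in the MA9+SETDB1 (red, left) and MA9+EV (blue, right) libraries, with mean ± SD beside the points (bars are cut at 0) and a scale of its own from 0 in each panel. Cox6b2 and Cox6a1 separate the arms, while for Cox6b1, Cox7a1, Cox7a2, Cox4i1, Cox6a2 and Cox4i2 the libraries overlap.

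The promoters of the isoform genes that were called are shown to set a window with 2 motifs beside one with none: Cox6a1 (chr5:115348909-115349208, minus strand) held an NRF1 run and an ETS match, in capitals, and Cox6b2 (chr7:4753045-4753344, minus strand) held none of the 4 motifs.
Cox6a1: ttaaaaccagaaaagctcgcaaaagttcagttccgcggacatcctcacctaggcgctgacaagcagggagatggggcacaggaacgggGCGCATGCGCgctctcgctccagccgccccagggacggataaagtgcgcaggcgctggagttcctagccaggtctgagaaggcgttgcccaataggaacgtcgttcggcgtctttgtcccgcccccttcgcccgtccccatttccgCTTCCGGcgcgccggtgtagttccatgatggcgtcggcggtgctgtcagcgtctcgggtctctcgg
Cox6b2: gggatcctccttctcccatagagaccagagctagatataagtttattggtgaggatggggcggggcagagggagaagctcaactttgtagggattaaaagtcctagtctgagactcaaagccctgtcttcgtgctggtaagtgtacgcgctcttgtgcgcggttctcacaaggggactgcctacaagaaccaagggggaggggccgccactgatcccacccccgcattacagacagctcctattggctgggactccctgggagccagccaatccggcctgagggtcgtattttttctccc

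ATP synthase, complex V, had 4 of 16 tested members called (25.0%, against 53.5% of all tested genes), 2 in each direction. Atp5e, the epsilon subunit of the central stalk (chr2:174461075-174464101), was the one past 2-fold. It stood at 208, 284 and 316 CPM in MA9+SETDB1 cells and at 113, 142 and 130 CPM in MA9+EV. The ranges did not overlap, and the fold change was 2.10 (log2 1.07 ± 0.18 SE, edgeR adjusted p = 0.00239). The catalytic subunits did not follow it: Atp5b, the beta subunit, stood at 1284, 1605 and 1614 CPM in MA9+SETDB1 cells against 1563, 1400 and 1373 CPM in MA9+EV (0.05), and Atp5a1, the alpha subunit, at 943, 955 and 955 CPM in MA9+SETDB1 cells against 1166, 1098 and 1065 CPM in MA9+EV (-0.22, edgeR adjusted p = 0.138). Neither was called. Within libraries, Atp5e counts came to 16.2%, 17.7% and 19.6% of Atp5b counts in MA9+SETDB1 and to 7.26%, 10.1% and 9.47% in MA9+EV, again without overlap and not per length.

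The peripheral stalk holds the catalytic head in place, and its members were called in both directions. Atp5f1, subunit b, was higher, with 233, 216 and 222 CPM in MA9+SETDB1 cells and 194, 177 and 173 CPM in MA9+EV (0.30, edgeR adjusted p = 0.0357). It was not called without composition factors (0.075, adjusted p = 0.593) or with upper-quartile scaling (0.23, adjusted p = 0.0722). Atp5o, the oligomycin sensitivity protein, was lower at 56.2, 56.9 and 63.4 CPM in MA9+SETDB1 cells against 69.4, 83.8 and 89.2 CPM in MA9+EV (-0.46, adjusted p = 0.0187), and Atp5j, coupling factor 6, was lower at 91.7, 91.9 and 92.3 CPM in MA9+SETDB1 cells against 101, 116 and 129 CPM in MA9+EV (-0.33, adjusted p = 0.0431). All 3 separated the arms by small margins, and each lost its call when single libraries were left out, without MA9+SETDB1 replicate 2 for instance at 0.083, 0.0747 and 0.126 for Atp5f1, Atp5o and Atp5j. Without MA9+EV replicate 3 their adjusted p was 0.147, 0.0729 and 0.147, and without MA9+EV replicate 2 it was 0.133, 0.0659 and 0.108. Without MA9+SETDB1 replicate 3, Atp5f1 was at 0.0934 and Atp5j at 0.118, and without MA9+SETDB1 replicate 1 Atp5j was at 0.0577. Atp5j shares 967 bases with Gabpa, which was itself lower. The 3 genes of the membrane ring subunit c did not pass, with log2 fold changes of -0.34 for Atp5g1, -0.22 for Atp5g2 and -0.18 for Atp5g3. Atp5s had a log2 fold change of -0.02.

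The mitochondrial genome encodes 13 proteins, all in these complexes, and its transcripts are cut from long precursors read off each strand. Of the 13 genes 7 had counts and were tested, and 2 were called lower: mt-Nd6 and mt-Nd5. That is 28.6% of the 7, close to the 26.2% of all tested genes that were called lower. The median log2 fold change of the 7 was -0.33. Their summed level was 8827, 9527 and 8456 CPM in MA9+SETDB1 cells and 10332, 8883 and 11640 CPM in MA9+EV, which overlapped. As a share of all gene counts, with no composition factor, this was 0.825% ± 0.0611 in MA9+SETDB1 and 1.11% ± 0.157 in MA9+EV (SD, n = 3 each). These shares did not overlap, at up to 0.873% in MA9+SETDB1 and from 0.959% in MA9+EV. The count of 2 became 1 without MA9+SETDB1 replicate 2, MA9+SETDB1 replicate 3 or MA9+EV replicate 3, 3 with the replicate block, 6 without composition factors and 0 with replicates 2 and 3 summed.

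These genes have no introns, so their levels can be set side by side per kilobase. In MA9+SETDB1 libraries mt-Co1, the catalytic subunit of complex IV, led with 2252 ± 256 CPM per kilobase, against 2061 ± 280 in MA9+EV, where mt-Nd1 was at 2121 ± 307 (SD, n = 3 each). The complex I genes mt-Nd1 and mt-Nd2 stood at 1786 ± 127 and 827 ± 68.7 CPM per kilobase in MA9+SETDB1 and at 2121 ± 307 and 1039 ± 171 in MA9+EV, and neither was called. The level of mt-Nd4 was 433 ± 25.7 in MA9+SETDB1 and 502 ± 67.3 in MA9+EV on the same scale, also not called. At the bottom of the order was mt-Nd6, at 7.93 ± 0.568 CPM per kilobase in MA9+SETDB1 and 21.3 ± 7.37 in MA9+EV. In MA9+SETDB1 the order of levels was mt-Co1, mt-Nd1, mt-Cytb, mt-Nd2, mt-Nd5, mt-Nd4 and mt-Nd6, with no overlap between neighbours. Reads with several alignments were not counted, so the length over which reads could be counted may be shorter than the gene and was not known for any of the 7, and the order rests on full gene lengths. In MA9+EV the order was the same except that mt-Nd1 was above mt-Co1, and mt-Co1 overlapped with both mt-Nd1 and mt-Cytb.

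**Figure D5:**
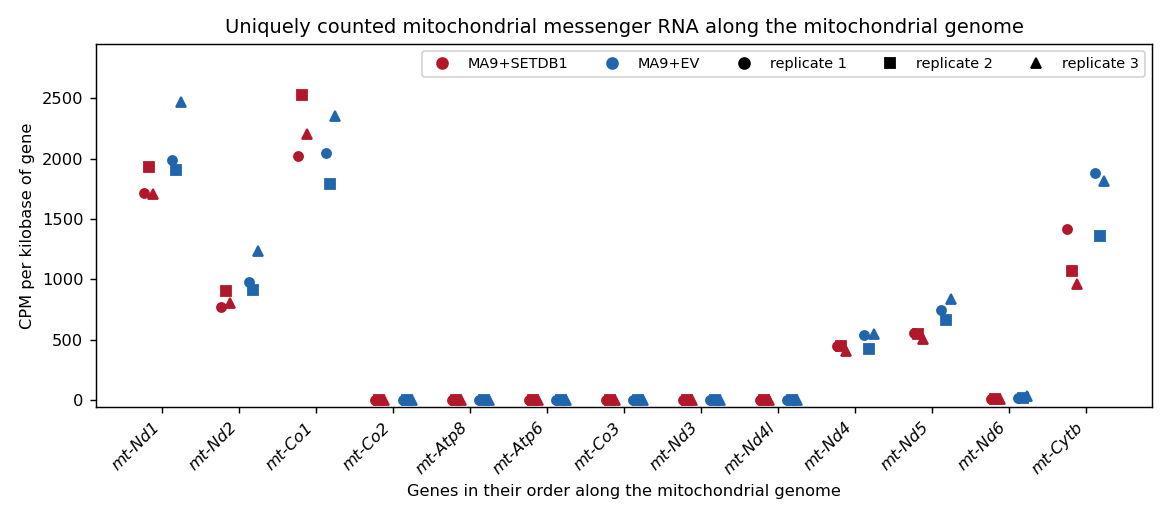
CPM per kilobase of gene (y axis) for the 13 mitochondrial protein genes in their order along the mitochondrial genome (x axis), with 1 point per library (MA9+SETDB1 red and left, MA9+EV blue and right, marker shape by replicate). The 6 neighbouring genes from mt-Co2 to mt-Nd4l are at 0 in every library, and of the 7 genes with counts all but mt-Co1 have lower means in MA9+SETDB1.

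The genes called were neighbours on opposite strands, with ends that overlap. The gene mt-Nd6 (chrMT:13552-14070) is the one protein gene of the mitochondrial light strand, and its messenger RNA is known in human cells to lack the long poly-A tail that these libraries select for. It had 77, 62 and 82 counts in MA9+SETDB1 and 203, 224 and 306 counts in MA9+EV, or 4.31, 3.77 and 4.26 CPM in MA9+SETDB1 cells against 8.38, 9.29 and 15.4 CPM in MA9+EV. The arms did not overlap (-1.42 ± 0.29 SE, edgeR adjusted p = 0.00547), and its adjusted p was 0.0611 with replicates 2 and 3 summed. Its counts were 0.422% ± 0.0425 of mt-Nd5 counts in MA9+SETDB1 and 0.799% ± 0.199 in MA9+EV (SD, n = 3 each). Without the strand setting of the counting, reads of mt-Nd6 cannot be told from reads of the opposite strand. Next to mt-Nd6, mt-Nd5 (chrMT:11742-13565) stood at 1017, 995 and 917 CPM in MA9+SETDB1 cells and at 1365, 1201 and 1526 CPM in MA9+EV (-0.48 ± 0.14 SE, edgeR adjusted p = 0.0241). Its call was lost without MA9+SETDB1 replicate 2 (0.0754), MA9+SETDB1 replicate 3 (0.0972) or MA9+EV replicate 3 (0.0947). The gene after them, mt-Cytb, the mitochondrial subunit of complex III, stood at 1618, 1219 and 1101 CPM in MA9+SETDB1 cells and 2147, 1553 and 2072 CPM in MA9+EV. Replicate 1 of MA9+SETDB1 reached above the lowest MA9+EV library, and mt-Cytb was not called (-0.55, edgeR adjusted p = 0.0605) except with the replicate block (0.0385), without MA9+SETDB1 replicate 1 (0.0154), without MA9+EV replicate 2 (0.0493) or under 5 other settings. Against mt-Co1 in the same library, mt-Nd5 counts came to 28.3% ± 3.75 in MA9+SETDB1 and 42.9% ± 0.734 in MA9+EV, and mt-Cytb counts to 38.4% ± 11.6 in MA9+SETDB1 and 60.4% ± 6.59 in MA9+EV (SD, n = 3 each, not per length). Both ratios were lower in every MA9+SETDB1 library than in any MA9+EV library.

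The other 6 mitochondrial genes were listed at 0 in all 6 libraries: mt-Co2, mt-Atp8, mt-Atp6, mt-Co3, mt-Nd3 and mt-Nd4l. They form an unbroken stretch of the mitochondrial genome (chrMT:7013-10173) between mt-Co1 and mt-Nd4, which had 55838 to 76468 and 10121 to 17982 counts per library. Reads with several alignments were not counted to genes, and they made up 18.4% to 20.2% of all entries. Gm10925, a pseudogene on chromosome 1 that RefSeq also lists under the name mt-Atp6, spans 681 bases (chr1:24613971-24614651), as long as mt-Atp6, and had 1 count in all libraries together. Whether the 0 values come from such shared sequence was not tested, so nothing about the level of the 6 genes can be read from them.

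Genes that serve these complexes from outside were taken by list. Among 25 tested genes for mitochondrial DNA replication, transcription and transcript stability, 11 were called lower and 0 higher (0 also by DESeq2 and at an unadjusted p under 0.05), with a median log2 fold change of -0.38. That is 44.0% called lower, where 26.2% of all tested genes were called lower and 27.4% higher, and 3 were called lower with replicates 2 and 3 summed. Twnk, the mitochondrial helicase, stood at 23.0, 22.0 and 22.9 CPM in MA9+SETDB1 cells and 44.7, 39.7 and 39.6 CPM in MA9+EV (-0.87, edgeR adjusted p = 0.000747). Lrpprc, which stabilises mitochondrial messenger RNA, stood at 100, 78.6 and 78.2 CPM in MA9+SETDB1 cells against 148, 147 and 150 CPM in MA9+EV (-0.80, adjusted p = 0.00172). In both genes the 2 arms lay well apart. The RNA-binding proteins Fastkd2 (-0.77) and Fastkd1 (-0.60) were lower as well, as was Tfam, which packs and helps transcribe mitochondrial DNA (-0.29, adjusted p = 0.0312).

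Of 40 tested assembly factors outside the Ndufaf group, 5 were higher (12.5%, against 27.4% of all tested genes) and 12 lower (30.0%, against 26.2%). With replicates 2 and 3 summed these counts were 1 and 4. Acad9, an assembly factor of complex I, stood at 28.9, 29.0 and 29.1 CPM in MA9+SETDB1 cells and 73.9, 76.3 and 77.0 CPM in MA9+EV (-1.38, edgeR adjusted p = 4.45e-05). Uqcc1 for complex III (-0.74), Cox10 for the haem of complex IV (-0.86) and Atpaf2 for ATP synthase (-0.81) were lower too. Cytochrome c (Cycs) and cytochrome c1 (Cyc1) were not called. In the citric acid cycle outside complex II, 3 of 14 genes were higher and 4 lower (21.4% and 28.6%, against 27.4% and 26.2% of all tested genes), or 1 and 3 with replicates 2 and 3 summed. Dlst rose to 439, 470 and 483 CPM in MA9+SETDB1 cells, against 212, 246 and 236 CPM in MA9+EV (1.00, edgeR adjusted p = 0.000381), and Dld, the partner of Dlst in the 2-oxoglutarate dehydrogenase complex, was lower (-0.75). Succinyl-CoA ligase makes the substrate of complex II, and its subunit genes Suclg1 (-0.66) and Suclg2 (-1.34) were lower, while Sucla2, the gene of its other beta subunit, was not called (-0.12, adjusted p = 0.26).

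Of 11 tested nuclear regulators, 2 were higher and 4 lower, which is 54.5% called and near the 53.5% of all tested genes. With replicates 2 and 3 summed 1 of these 11 was higher and 2 were lower. Ppargc1a, also on the list, did not pass the low-count filter with all 6 libraries. It had 0, 1 and 0 counts in MA9+SETDB1 and 10, 47 and 47 counts in MA9+EV. With replicates 2 and 3 summed it was tested and called lower (-5.88, edgeR adjusted p = 0.0265). Ppargc1b, a coactivator of mitochondrial genes, stood at 0.615, 0.548 and 0.156 CPM in MA9+SETDB1 cells and 5.37, 9.21 and 9.87 CPM in MA9+EV (-4.21, edgeR adjusted p = 0.000647). Gabpa encodes the alpha chain of GABP, and Gabpb1 and Gabpb2 encode beta chains. Gabpa was at 80.8, 79.0 and 72.2 CPM in MA9+SETDB1 cells and 136, 122 and 116 CPM in MA9+EV (-0.69), and Gabpb1 at 72.3, 132 and 129 CPM in MA9+SETDB1 cells against 49.8, 62.9 and 61.5 CPM in MA9+EV (0.93, edgeR adjusted p = 0.0153, 0.108 with replicates 2 and 3 summed). Gabpb2 stood at 177, 92.8 and 88.6 CPM in MA9+SETDB1 cells and 207, 157 and 150 CPM in MA9+EV, and was called lower with the replicate block (adjusted p = 0.019) but not without it (-0.52, 0.175). Perm1, a muscle coactivator, had 16, 14 and 19 counts in MA9+SETDB1 and 0 in each MA9+EV library, at least 20.8-fold higher against a floor of 3 counts over the arm. Nrf1 (-0.05) and Yy1 (-0.05) were not called. Of 10 genes linked to hypoxia, 1 was higher and 4 were lower, where 53.5% of all tested genes were called in either direction. Pdk1, a kinase that inhibits pyruvate dehydrogenase, stood at 61.4, 56.8 and 59.7 CPM in MA9+SETDB1 cells and 133, 266 and 261 CPM in MA9+EV (-1.89, edgeR adjusted p = 0.00114). Egln1, an oxygen sensor, was lower (-2.38), Higd1a, a small protein that binds complex IV, was higher (2.19), and Epas1 had 0 counts in MA9+SETDB1 and 18, 20 and 20 counts in MA9+EV, at least 15.2-fold lower.

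Of the 16 members that were not tested, 10 were nuclear, none with more than 33 counts over the 6 libraries, and 11 of the 16 had no count at all. Besides the genes given above, the nuclear ones were Ndufa11b, Ndufb4c, Ndufs6b and the second entry of Atp5o. Among the 9 pseudogene-named entries left out by the rule, Ndufb1-ps had 14433 counts and the rest at most 3 each. It stood at 121, 172 and 196 CPM in MA9+SETDB1 cells, against 73.7, 88.8 and 87.5 CPM in MA9+EV (0.97, edgeR adjusted p = 0.00471). The arms did not overlap.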

How the data were processed

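The authors deposited 1 table per library of gene counts in whole numbers, with no normalization. HTSeq 0.11.0 and STAR 2.6.0c are among the tools, and GRCm38 the build, listed without a role or an order in the submitters' processing notes. The sources used here do not give the strand setting of the counting, so overlapping genes are uncertain, and 31 nuclear members overlap another annotated gene. The other 20 samples of the series were not analysed here. Of 54146 gene identifiers 67 had no symbol in the reference table. The 5 summary lines, 24.6% to 26.3% of entries, entered neither library sizes nor tests. A library's gene counts limit precision, and floors and ranges cover counting error only.

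The 6 libraries were fitted in edgeR 4.0.16 (R 4.3.3, limma 3.58.1) with filterByExpr, TMM scaling and the quasi-likelihood test of MA9+SETDB1 over MA9+EV, and p-values were adjusted by Benjamini-Hochberg over all 12986 tested genes at a threshold of 0.05. The common biological coefficient of variation was 0.244. CPM are per TMM-scaled library, and SE is the fitted log2 fold change divided by the square root of its F statistic. The fit was also run on simulated data with independent libraries and few changed genes. That run does not cover a table with so many calls or with replicates 2 and 3 this close. Alternatives were DESeq2 1.42.0, other scalings, no filter, a replicate block, summed or left-out replicates and other denominators. The replicate numbers come from the labels. Libraries with the same number deviated together, with correlations of 0.257, 0.196 and 0.169 for numbers 1, 2 and 3. However, replicate 3 of MA9+SETDB1 correlated at 0.203 with replicate 2 of MA9+EV. Replicate 2 of MA9+SETDB1 correlated at 0.177 with replicate 3 of MA9+EV. The correlations therefore set replicate 1 apart but did not tell replicates 2 and 3 from each other. The numbers were taken as pairs all the same in the replicate block, while the main fit did not use them. The settings chosen after seeing the data were library sizes without composition factors and leaving out replicate 1 of both arms. The members, lists and rules were chosen with earlier results of these data known. Named were all mitochondrial and complex II members, isoform pairs, up to 4 members per class and up to 4 genes per other list with the smallest p, the 5 largest rises and falls among called members with a mean of 10 CPM or more, and untested members. Other genes in the text (Uqcrc2, Uqcrfs1, Atp5a1, Atp5b, Tfam, Nrf1, Yy1 and Ndufb1-ps among them) were named after their values were seen. Some genes of the lists are not reported here. Coordinates and promoters are from RefSeq (GRCm38.p6).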

Additional observations from a re-analysis of the deposited data

How the results depend on the processing

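Depth was similar between libraries, and replicate 1 stood apart in both arms. With replicates 2 and 3 summed, 4220 of the genes that passed the low-count filter at that setting were called (2292 higher, 1928 lower). Among them were 8 nuclear members (6 higher, 2 lower) and 0 mitochondrial ones. A count of 0 there was also 0 at that setting in either direction, while DESeq2 on all libraries called 3 mitochondrial genes and an unadjusted p under 0.05 was reached by 3. Without replicate 1 of either arm, 10599 genes were called, 5285 of them lower, with 59 nuclear members (35 higher, 24 lower) and 7 mitochondrial ones (1 higher, 6 lower). The cause was not tested. The fit without replicate 1 holds only replicates 2 and 3, which were close to each other (chi-square per degree of freedom 3.26 in MA9+SETDB1 and 4.50 in MA9+EV). Its p-values cover only the spread between these close libraries.

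Without composition factors 8 nuclear members were called higher and 34 lower, 6 mitochondrial genes were called, all lower, and the medians were -0.27 for nuclear and -0.56 for mitochondrial members. In that setting 15 of the 95 tested members changed sign, none of them called. Among the named genes these were Cox6b1 (-0.13), Cox7a2l (-0.052), Ndufv1 (-0.042) and mt-Co1 (-0.11), besides Atp5b and Uqcrfs1. With all file entries as denominator the nuclear share was 0.717% in MA9+SETDB1 and 0.833% in MA9+EV, and the mitochondrial share 0.618% in MA9+SETDB1 and 0.828% in MA9+EV. Leaving out 1 library at a time gave 16 to 41 nuclear members (9 to 27 higher, 7 to 16 lower) and 1 to 3 mitochondrial ones, all lower. The fewest nuclear calls came without MA9+SETDB1 replicate 2 (16), MA9+EV replicate 3 (17), MA9+SETDB1 replicate 3 (18) or MA9+EV replicate 2 (19). The 27 higher calls came from leaving out replicate 1 of MA9+SETDB1. Over all 15 alternatives 25 of the 95 members changed sign at least once, and none of the called ones did. Outside the scaling change, named genes that did so included Atp5g2 (0.13 without replicate 1 of either arm), Atp5s (-0.093 to 0.055 over single libraries left out), Cox7a1 (-0.50 to 0.13) and Cox7a2l (-0.021 to 0.34).

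With the replicate block 38 nuclear members were called (21 higher, 17 lower) and 3 mitochondrial genes. Of the 31 nuclear calls 30 were kept, Ndufs3 being the exception. With DESeq2 all 31 were kept and 36 were called. The nuclear count lay between 23 and 38 with DESeq2 size factors, upper-quartile scaling, no low-count filter, DESeq2, nuclear library sizes and the block.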

Other observations

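The mitochondrial ribosomal RNAs, which poly-A selection does not aim at, did not follow mt-Nd5 and mt-Nd6. The small ribosomal RNA gene mt-Rnr1 stood at 279, 367 and 364 CPM in MA9+SETDB1 libraries and at 214, 411 and 493 CPM in MA9+EV libraries (log2 fold change -0.15, edgeR adjusted p = 0.704). The large one, mt-Rnr2, stood at 511, 582 and 590 CPM in MA9+SETDB1 and 356, 479 and 605 CPM in MA9+EV (0.22, edgeR adjusted p = 0.379). In both genes the arms overlapped and replicate 1 was the lowest library of each arm. A transfer RNA gene next to mt-Cytb, mt-Tt, was called lower on few counts, 10, 10 and 5 in MA9+SETDB1 and 86, 29 and 19 in MA9+EV (edgeR adjusted p = 0.0336), and it was named after its values were seen.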
